A study of Mus musculus with 9 samples.

Results

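Cpe, Ndrg4 and Fgfr1 are 3 of the 24411 genes in a TPM table of macrophage lines. They were selected on their measured values, as genes expressed mainly in lines from bone marrow. Carboxypeptidase E, encoded by Cpe, trims basic residues from the ends of peptide intermediates in the secretory pathway and is best known from endocrine and nerve cells. NDRG4 belongs to the N-myc downstream-regulated gene family and is known mainly from brain and heart. FGFR1 is a receptor tyrosine kinase that binds fibroblast growth factors together with heparan sulfate and signals through the RAS and MAP kinase cascade. All 3 genes lie on mouse chromosome 8 in the RefSeq gene table, where they are far apart and stand at places 207 (Fgfr1), 378 (Cpe) and 729 (Ndrg4) among 1043 protein-coding genes.

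RNA of 9 libraries was compared: 3 lines of yolk sac origin (YS lines), 3 of fetal liver origin (FL lines) and 3 of adult bone marrow origin (BM lines). Each line was a bulk culture grown from its own dish or well out of unsorted C57BL/6 cells of more than a single mouse, with no genetic change, and each had been expanded over many passages with recombinant human M-CSF, the macrophage growth factor that all groups share. A line is therefore a mixed culture after long expansion and not a tissue macrophage, and p-values measure only the spread between such cultures. Yolk sacs were taken at E9.5 and fetal livers at E14.5.

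The values are TPM, a length-scaled share of each library's transcripts, so depth is unknown and no counting interval is given. In bulk RNA, fewer cells that carry a transcript and less transcript per cell cannot be told apart. The markers of macrophages fixed for this work were all present: the summed level of the 8 genes ran from 11717 to 13300 TPM in BM lines, from 11786 to 28521 TPM in FL lines and from 4215 to 9309 TPM in YS lines. Fcgr1, the high-affinity IgG receptor, was low in BM lines: it stood at 5.47, 42.10 and 1.68 TPM in BM lines 1, 2 and 3, against 122.16 to 329.94 TPM in YS lines and 110.13 to 171.94 TPM in FL lines. The difference of BM lines was -4.65 from YS lines (SE 0.87, limma adjusted p = 0.00761) and -4.02 from FL lines (SE 0.87, limma adjusted p = 0.0142). None of the 10 markers of marrow stromal cells and fibroblasts reached 1 TPM in any line, and their sum was at most 1.61 TPM, in BM line 2. The 7 markers of neurons and neuroendocrine cells, where Cpe and Ndrg4 are best known, summed to 8.15 to 8.91 TPM in BM lines, 5.97 to 13.57 TPM in FL lines and 2.16 to 5.60 TPM in YS lines, with 3 of the 7 never at 1 TPM. Within this sum, Map2, a microtubule-associated protein of neurons, stood at 5.53, 5.90 and 6.81 TPM in BM lines and at 0.85 TPM or less elsewhere, whereas Syp, a synaptic vesicle protein, was highest in FL lines at 5.94 to 10.27 TPM and at 0.68 to 0.85 TPM in BM lines. The part of cells of this kind in the levels of Cpe and Ndrg4 was not tested. Among osteoblast markers Runx2 alone reached 5 TPM and Alpl was listed at 0 in all lines, with summed levels of 7.23 to 10.18 TPM in BM lines, 6.13 to 9.06 TPM in YS lines and 1.07 to 3.45 TPM in FL lines. Markers of adipocytes, mast cells, lymphocytes and erythroid cells never reached 1 TPM. Endothelial markers summed to at most 1.14 TPM in BM lines, against maxima of 55.75 TPM among YS lines and 51.68 TPM among FL lines, and neutrophil markers to 3.49 to 5.00 TPM in BM lines, 10.49 to 25.11 TPM in FL lines and 0.06 to 2.19 TPM in YS lines.

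A pair of libraries held transcripts in common. Over 45 genes at 20 TPM or more in YS line 2 and under 0.5 TPM in BM lines 1 and 3, the median level in BM line 2 was 14.1% of that in YS line 2. In the other direction, over 22 genes at 20 TPM or more in BM line 2 and under 0.5 TPM in YS lines 1 and 3, the median level in YS line 2 was 0.409% of that in BM line 2, with 3 genes at 5% or more. Ndrg4 and Fgfr1 are among these 22 genes, and Cpe is not because YS line 3 also carried it. For the 3 genes, ratios of the lowest BM line to the highest other line are given without either library where they rest on it. This was not done for every other gene, among them Fcgr1, whose highest BM value was in BM line 2.

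Cpe was the most abundant of the 3 transcripts. In BM lines 1, 2 and 3 it stood at 654.52, 521.28 and 671.21 TPM. In FL lines 1, 2 and 3 it stood at 0.24, 0.19 and 5.86 TPM. In YS lines 1, 2 and 3 it stood at 0.07, 93.09 and 6.56 TPM. The 3 BM lines were close to each other and above every other line, whereas the YS lines ranged from almost no transcript to a clear level in line 2, and FL line 3 stood above the other two FL lines. The mean in BM lines was 616 ± 82.2 TPM (SD, n = 3), higher than that of 98.0% of the 11753 genes tested. BM lines held 94.6% of the sum of the 3 group means for Cpe, and 99.1% without YS line 2. The lowest BM line was 5.60 times the highest other line, YS line 2, and 79.5 times the highest other line, YS line 3, when YS line 2 was left out. Without BM line 2 the former ratio was 7.03. On the log2(TPM + 1) scale the difference of BM minus YS lines was 6.07, with 7.75 without YS line 2 and 4.52 without YS line 1. The difference of BM minus FL lines was 8.15. Because Cpe was chosen for its level in BM lines, these differences are a description with no test.

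The Cpe level of YS line 2 was 17.9% of that in BM line 2. Among the 22 transcripts that BM line 2 held and the other YS lines lacked, the lower and upper quartiles of the share seen in YS line 2 were 0.0718% and 0.646%. Whether an exchange of material between the 2 libraries contributed to the Cpe value was not tested.

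Ndrg4 was the next in abundance. In BM lines 1, 2 and 3 it stood at 353.62, 293.08 and 389.97 TPM. In FL lines 1, 2 and 3 it stood at 6.79, 4.65 and 2.96 TPM. In YS lines 1, 2 and 3 it stood at 0.15, 1.29 and 0.42 TPM. The groups formed 3 separate steps with no overlap, BM lines highest and YS lines lowest. The mean in BM lines was 346 ± 48.9 TPM (SD, n = 3), and BM lines held 98.5% of the sum of the 3 group means. The lowest BM line was 43.2 times the highest other line, FL line 1, and 52.1 times without BM line 2. The log2 difference of BM lines was 7.79 over YS lines and 5.95 over FL lines. YS line 2 held 0.440% of the BM line 2 level.

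Fgfr1 was the least abundant and the most restricted. In BM lines 1, 2 and 3 it stood at 24.23, 20.10 and 40.68 TPM. In YS lines 1, 2 and 3 it was listed at 0, 0.03 and 0.03 TPM, and in FL lines 1, 2 and 3 at 0.03, 0.03 and 0 TPM. Thus the gene was near the last of the 2 decimals of the table in all 6 embryonic lines, so that the ratio of 670 between the lowest BM line and the highest other line (808 without BM line 2) rests on values of 0.03 TPM. The mean in BM lines was 28.3 ± 10.9 TPM (SD, n = 3), higher than that of 53.5% of genes tested. It passed the filter on low values, 1 TPM in at least 3 libraries, only through the 3 BM lines, whereas Cpe reached 1 TPM in 6 and Ndrg4 in 7 of the 9 libraries. The log2 difference of BM lines was 4.78 over YS lines and 4.78 over FL lines.

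**Figure D1:**
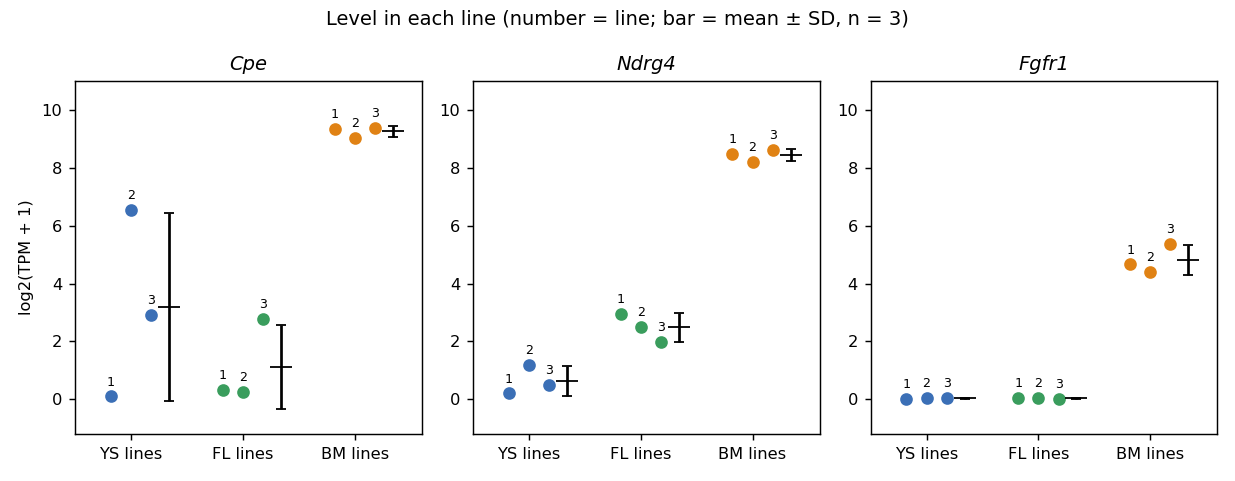
Level of Cpe, Ndrg4 and Fgfr1, as log2(TPM + 1) on the vertical axis, in the 3 YS, 3 FL and 3 BM lines; each point is a line with its number, and the bar beside a group is its mean ± SD (n = 3). All BM lines sit above all other lines for each gene, YS line 2 stands apart for Cpe at 93.09 TPM, and FL lines sit above YS lines for Ndrg4.

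The BM lines stood in the same order for all 3 genes, with BM line 3 highest and BM line 2 lowest. Its level was 0.786 of the mean of BM lines 1 and 3 for Cpe. The same value was 0.788 for Ndrg4 and 0.619 for Fgfr1. The coefficient of variation over BM lines was 13.3% for Cpe, 14.2% for Ndrg4 and 38.4% for Fgfr1, where BM line 3 stood at 2.02 times the level of BM line 2. BM line 2 was also lowest in 15 of 18 other genes with the same pattern, at 20 TPM or more in every BM line and at least 5 times the highest other line, with a median level of 0.828 of the mean of BM lines 1 and 3. The part of the transcripts shared with YS line 2 in these lower values was not tested.

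The pattern is rare in its steep form and common in its loose form. Every BM line was above every other line in 1284 genes, 10.9% of those tested, and the 3 genes are among them by choice. The lowest BM line was at least 5 times the highest other line in 55 genes, and in 21 of these BM lines were also at 20 TPM or more. A share of BM lines in the summed group means as high as that of Cpe was found in 37 genes, as high as that of Ndrg4 in 19 genes and as high as that of Fgfr1 in 6 genes. In a limma test across all genes, where a call needs an adjusted p under 0.1 and a change over 2-fold, 12.8% of genes tested differed between YS and BM lines, 5.22% being higher in BM lines. Between FL and BM lines 10.3% were called, 4.30% being higher in BM lines. Nothing is read from the position of Cpe, Ndrg4 and Fgfr1 among these, since the same contrast chose them.

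The comparison of YS with FL lines did not enter the choice and can be tested. Ndrg4 was higher in FL lines: the YS minus FL difference was -1.85 on the log2(TPM + 1) scale (SE 0.31, limma adjusted p = 0.0234, 95% interval -2.60 to -1.10). All 3 FL lines were above all 3 YS lines, and the FL mean of 4.80 ± 1.92 TPM was 7.74 times the YS mean of 0.620 ± 0.596 TPM (SD, n = 3 each). The exact two-sided permutation test over the 6 lines gave p = 0.1, the smallest that 3 against 3 lines allow. In this comparison 3.79% of genes tested were called, 1.85% being higher in FL lines. The call on Ndrg4 was lost when only the YS and FL lines were fitted (limma adjusted p = 0.122), where the spread is estimated without BM lines.

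For Cpe, the difference of YS minus FL lines was 2.08 (SE 1.40, limma adjusted p = 0.374), and its 95% interval from -1.34 to 5.50 leaves both directions possible. The lines of both groups overlapped, and p was 0.6 in the exact two-sided permutation test. The value rests on single lines: it was 0.39 without YS line 2, with a limma adjusted p of 0.819, and 3.62 without YS line 1, which passed the threshold at a limma adjusted p of 0.0993. For Fgfr1 the groups had the same 3 values, 0 once and 0.03 TPM in the other lines, so there was no difference to test. At 0.03 TPM or less the table cannot order the embryonic groups for this gene.

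Over the 9 libraries, the log2(TPM + 1) values gave a Pearson's r of 0.814 for Cpe with Ndrg4, 0.870 for Cpe with Fgfr1 and 0.967 for Ndrg4 with Fgfr1. These values mostly restate that all 3 genes were chosen for high BM lines, and the libraries share groups, so no p is given. The closest genes by the same measure, among all genes tested, differed between the 3. For Cpe they were Apbb2 (r = 0.979), Ttc9 (0.978), Fos (0.973), Lrrc16a (0.972) and Idh3g (0.971). For Ndrg4 they were Sgms1 (0.990), Sec11c (0.985), B930041F14Rik (0.984) and Sfxn4 (0.984). For Fgfr1 they were Akap2 (0.997), Kctd17 (0.997), Kirrel3 (0.996), Apbb1 (0.994) and Fosl1 (0.994). Each of these stayed at 0.64 TPM or less in all YS and FL lines. Like Fgfr1, they passed the filter only through the BM lines, so a high r was fixed by the filter and nothing is read from it. None of the genes named here lies on chromosome 8.

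For FGFR1 to signal, a cell needs a ligand from some source, heparan sulfate carriers such as syndecans, docking proteins such as FRS2, and the RAS, RAF and MAP kinase chain, which is held back by Sprouty proteins and dual-specificity phosphatases. A list of 69 other genes of this pathway was compared, of which 38 passed the filter. Between YS and BM lines, 7 of the 38 were higher and 4 lower in BM lines. Between FL and BM lines, 6 were higher and 6 lower, a split that became 7 and 4 under quantile normalization and 6 and 5 under median-of-ratios scaling. Without BM line 2 the split between YS and BM lines was 6 higher and 7 lower. No gene of the list was called between YS and FL lines by limma, with 9 genes at an unadjusted p under 0.05. The median log2 difference of the list was -0.08 for BM minus YS lines and -0.18 for BM minus FL lines, beside -0.11 and -0.09 over all genes tested. The called share was 28.9% and 31.6%, and 25% and 27.8% without Sdc2 and Fosl1, which passed the filter only through the BM lines, beside 12.8% and 10.3% over all genes, with genes moving both ways. Those 2 genes could only be called higher in BM lines. Without them, 5 of 36 genes were higher than in YS lines and 4 higher than in FL lines.

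Ligands were not detected at a level of 1 TPM. All 18 FGF ligand genes stayed below 1 TPM in all 9 libraries, the highest value being 0.62 TPM for Fgf9. The other signalling receptors were equally low: Fgfr2 was listed at 0 in all lines, Fgfr3 reached 0.18 TPM and Fgfr4 0.10 TPM. Fgfrl1 encodes a receptor of the family without a kinase domain. It stood at 4.93, 6.43 and 8.50 TPM in BM lines 1, 2 and 3, against 1.46, 2.49 and 3.60 TPM in YS lines and 4.25, 2.25 and 1.67 TPM in FL lines. The BM lines were above all others, by 1.14 over YS lines (SE 0.33, limma adjusted p = 0.0351) and 1.07 over FL lines (SE 0.33, limma adjusted p = 0.0538) on the log2 scale. The first call was lost without YS line 1 (difference 0.90) or BM line 3 (0.96), and the second without FL line 2 (1.00), FL line 3 (0.86), BM line 2 (1.07) or BM line 3 (0.89). Per length, Fgfr1 was thus the most abundant receptor gene of the family in each BM line, and Fgfrl1 the most abundant in each embryonic line.

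Among the 4 co-receptors tested, Sdc1 and Sdc2 had all BM lines above all others, as did 10.9% of all genes tested. Sdc2 is among the 4 only through its BM lines, so for Sdc2 this order was fixed by the filter. Sdc1, encoding syndecan 1, a cell-surface heparan sulfate proteoglycan, stood at 97.09, 61.64 and 84.05 TPM in BM lines 1, 2 and 3. It stood at 0.70, 4.05 and 4.10 TPM in YS lines and 2.72, 2.03 and 2.88 TPM in FL lines. The difference was 4.51 against each embryonic group (SE 0.40, limma adjusted p = 0.000575 and 0.000515). Sdc2, a second syndecan, stood at 20.59, 16.36 and 21.01 TPM in BM lines and at 0.68 TPM or less elsewhere, a difference of 3.98 over YS lines and 4.31 over FL lines. These are given with no test, because Sdc2 passed the filter only through the BM lines, and their size rests on the added 1, at 2.43 to 5.85 and 2.53 to 7.40 over the other settings. Like Fgfr1, Sdc1 and Sdc2 kept all BM lines far above all other lines. Sdc3 and Sdc4 were not called in any comparison. Sdc3 stood at 196.65, 237.74 and 136.10 TPM in BM lines, below all YS lines (313.35 to 440.97 TPM) and overlapping with FL lines (216.60 to 465.81 TPM). Its difference was -0.99 from YS lines (limma adjusted p = 0.0453) and -0.91 from FL lines (limma adjusted p = 0.0730), both short of the 2-fold limit. Sdc4 ran from 84.35 to 96.42 TPM in BM lines, 70.30 to 90.98 TPM in YS lines and 48.43 to 67.82 TPM in FL lines. Kl and Klb, which encode the klotho co-receptors of the endocrine FGFs, stayed at 0.09 TPM or less.

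The adaptors were present in all groups. By limma 0 of the 7 adaptors tested were called in any comparison, with 2, 1 and 0 of them at an unadjusted p under 0.05 between YS and BM, FL and BM, and YS and FL lines. Among them were Frs2, the docking protein of FGF receptors, at 9.47 to 13.73 TPM over the 9 lines, and Grb2. Grb2 stood at 143.77 to 151.89 TPM in BM lines, below all other lines at 183.95 to 282.90 TPM. It differed by -0.35 from YS lines (limma adjusted p = 0.102) and -0.58 from FL lines (limma adjusted p = 0.0255), under the 2-fold limit. Gab1, a further docking protein that did not pass the filter, reached 3.15 TPM in FL line 2 and 0.11 TPM at most in BM lines. Mapk3, a kinase at the end of the cascade, ran from 171.75 to 272.68 TPM and was not called.

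Inhibitors and target genes moved in both directions. Dusp6, a phosphatase of ERK that is itself induced by FGF signalling in many cells, stood at 78.21, 98.73 and 74.69 TPM in BM lines. In YS lines it stood at 167.43, 169.11 and 247.49 TPM, and in FL lines at 277.00, 344.09 and 284.99 TPM. BM lines were below all others, with a difference of -1.19 from YS lines (SE 0.18, limma adjusted p = 0.00366) and -1.84 from FL lines (SE 0.18, limma adjusted p = 0.000664). Etv5, an ETS transcription factor and a common target of FGF signalling, was likewise lower at 26.44, 40.64 and 30.92 TPM in BM lines, against 63.82 to 110.19 TPM in YS lines and 86.19 to 133.74 TPM in FL lines. Its difference was -1.40 from YS lines (SE 0.25, limma adjusted p = 0.00593) and -1.71 from FL lines (SE 0.25, limma adjusted p = 0.00260).

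Etv4, of the same ETS subfamily, stood at 0.32, 1.63 and 0.90 TPM in BM lines. It differed by -2.20 from YS lines (limma adjusted p = 0.0191) and by -1.51 from FL lines (limma adjusted p = 0.0851), and the latter call was lost in 10 of 19 other settings. Among these were the fits without BM line 1 (-1.25), BM line 2 (-1.75), BM line 3 (-1.51), FL line 1 (-1.58), FL line 2 (-1.12) or YS line 2 (-1.51). Spry2, which restrains RAS signalling, was lower in BM than FL lines by -1.31 (limma adjusted p = 0.00847) and was not called against YS lines (-0.94). Cbl, a ubiquitin ligase that acts on activated receptors, differed by -1.09 from YS lines and -1.02 from FL lines (limma adjusted p = 0.0118 and 0.0169), calls that were lost under quantile normalization (-0.95 and -0.92) and under median-of-ratios scaling (-0.98 and -0.93). The former was also lost without YS line 1 (-0.88) and the latter without BM line 2 (-0.99) or FL line 1 (-0.86). Ccnd1 and Myc, growth targets, were not called in any comparison. Against both embryonic groups Ccnd1 missed only the 2-fold limit. It stood at 388.78 to 477.12 TPM in BM lines, against 707.89 to 1013.58 TPM in YS lines and 768.30 to 803.91 TPM in FL lines. Its difference was -0.97 from YS lines (limma adjusted p = 0.00346) and -0.90 from FL lines (limma adjusted p = 0.00415). The former was called in 5 of 19 other settings.

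Other targets were higher in BM lines. Fos, the immediate early AP-1 gene that was also among the genes closest to Cpe, stood at 198.05, 151.91 and 145.31 TPM in BM lines against 33.94 to 80.92 TPM in YS lines and 26.03 to 46.90 TPM in FL lines. The difference was 1.58 over YS lines (SE 0.32, limma adjusted p = 0.00976) and 2.11 over FL lines (SE 0.32, limma adjusted p = 0.00323). Fosl1, encoding the AP-1 protein FRA1, was listed at 0 in all YS and FL lines and stood at 4.89, 7.44 and 9.12 TPM in BM lines, so no fold is given. Like Sdc2 and Fgfr1, Fosl1 passed the filter on low values only through the BM lines. Dusp5, a nuclear ERK phosphatase, stood at 13.79, 8.57 and 9.15 TPM in BM lines, 1.69 above YS lines (limma adjusted p = 0.0280) and 2.08 above FL lines (limma adjusted p = 0.0154), and the former call was lost without BM line 1 (1.50, limma adjusted p = 0.103). Egr1 was higher in BM than YS lines by 1.00 (limma adjusted p = 0.0156) and not called against FL lines (0.90). That call was lost without BM line 1 (0.99), BM line 2 (0.84) or YS line 3 (0.96).

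Carboxypeptidase E acts late in the making of peptide hormones: convertases cut the prohormone, the carboxypeptidase trims the cut end, and PAM, the amidating enzyme, then modifies many of the products. Of 39 other genes of this path, 9 passed the filter. Between YS and BM lines, 2 were higher and 1 lower in BM lines, and between FL and BM lines, 1 was higher. The called share was 33.3% and 11.1%, beside 12.8% and 10.3% over all genes tested. The median difference over the 9 genes was 0.13 for BM minus YS lines and 0.28 for BM minus FL lines. Over all genes tested it was -0.11 and -0.09. Between YS and FL lines 1 of the 9 was called (11.1%), Adm, beside 3.79% over all genes tested.

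The convertases that precede CPE in endocrine granules were at or near 0: Pcsk2 was listed at 0 in all lines and Pcsk1 reached 0.48 TPM, in YS line 2. The general convertases were present, with Furin at 76.09 to 90.17 TPM in BM lines, 46.74 to 64.86 TPM in YS lines and 36.82 to 57.49 TPM in FL lines, and Pcsk7 at 26.58 to 28.51 TPM in BM lines, 44.56 to 60.12 TPM in YS lines and 30.79 to 44.47 TPM in FL lines. Furin was highest and Pcsk7 lowest in BM lines with no overlap, and neither reached the 2-fold limit of a call. All 5 granins, the structural proteins of dense-core granules, stayed below 1 TPM in all libraries, as did both convertase binding proteins, Pcsk1n and Scg5. In BM lines Cpe was thus present without the granins or the endocrine convertases.

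Among the 7 other regulatory carboxypeptidases, only Cpd was abundant, and by limma 0 of the 2 tested were called, with 0 at an unadjusted p under 0.05 in any comparison. Carboxypeptidase D, a membrane enzyme of the trans-Golgi network with the same specificity for basic residues, stood at 184.27, 196.01 and 202.59 TPM in BM lines. It stood at 52.62, 189.91 and 134.07 TPM in YS lines and 189.03, 232.73 and 146.49 TPM in FL lines, and these overlapped with BM lines in the case of FL lines and YS line 2. Per length, Cpe was above Cpd in every BM line and below it in every embryonic line. Cpxm1 ran from 0.59 to 1.49 TPM over the 9 lines, and Cpm, Cpn1, Cpz, Cpxm2 and Aebp1 never reached 1 TPM.

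Pam was the member of this path that was higher in BM lines in both comparisons. It stood at 112.08, 78.06 and 102.20 TPM in BM lines, 9.06, 27.19 and 26.10 TPM in YS lines and 27.68, 25.48 and 30.98 TPM in FL lines. All BM lines were above the rest, by 2.30 over YS lines (SE 0.36, limma adjusted p = 0.00404) and 1.75 over FL lines (SE 0.36, limma adjusted p = 0.0117). Npy, encoding the prohormone of neuropeptide Y, an amidated peptide, reached 695.67, 821.82 and 872.84 TPM in BM lines. It was listed at 0 in YS line 1 and stood at 55.33 and 91.70 TPM in YS lines 2 and 3, and at 54.30, 55.79 and 362.98 TPM in FL lines. BM lines were above all others, by 5.52 over YS lines (SE 1.54, limma adjusted p = 0.0302) and by 3.46 without YS line 1 (SE 0.76, limma adjusted p = 0.0163), and the difference of 2.93 from FL lines was not called (SE 1.54, limma adjusted p = 0.223), though it was without YS line 1 (limma adjusted p = 0.0172). Adm, the adrenomedullin prohormone, stood at 21.21, 3.72 and 6.85 TPM in YS lines against 0.12 to 0.45 TPM in FL lines and 0.78 to 1.66 TPM in BM lines. YS lines were higher by 2.87 over FL lines (SE 0.50, limma adjusted p = 0.0250), a call that was lost when only the YS and FL lines were fitted (limma adjusted p = 0.119), and BM lines differed by -2.11 from YS lines (SE 0.50, limma adjusted p = 0.0166). Pomc was not called in any comparison, and 13 prohormone genes never reached 1 TPM.

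Of the 4 NDRG genes, Ndrg4 alone had BM lines more than 2-fold above the rest. Ndrg1, a stress- and hypoxia-responsive member, stood at 7.30, 6.87 and 5.37 TPM in BM lines, 4.60, 9.41 and 7.64 TPM in YS lines and 14.95, 16.52 and 12.56 TPM in FL lines. FL lines were above all others, and BM minus FL lines gave -1.06 (SE 0.24, limma adjusted p = 0.0164), a call that was lost under quantile normalization (-0.95) and median-of-ratios scaling (-0.98), without BM line 3 (-0.95) and without FL line 2 (-0.98). Ndrg3 was expressed in all lines, at 50.88 to 51.93 TPM in BM lines and 27.25 to 49.12 TPM in the others. Its BM lines were thus also above every other line, by a small margin, and it was not called (0.50 over YS lines and 0.40 over FL lines). Ndrg2 stayed at 0.20 TPM or less. In YS minus FL lines Ndrg1 gave -0.97 (limma adjusted p = 0.0575), short of the 2-fold limit that Ndrg4 passed. Per length, Ndrg3 was the most abundant family member in every embryonic line and Ndrg4 in every BM line.

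**Figure D2:**
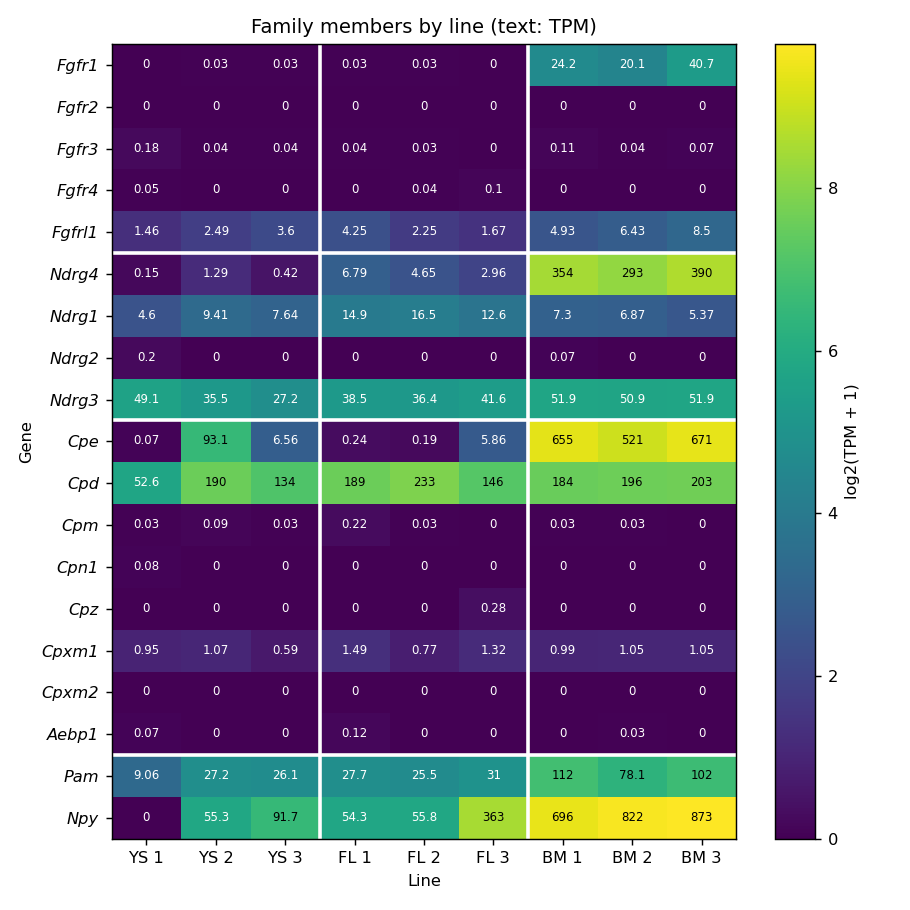
Level of receptor, NDRG, carboxypeptidase and 2 further peptide genes in each of the 9 lines, coloured by log2(TPM + 1) with the TPM to 3 significant digits in each cell. Fgfr1, Ndrg4 and Cpe change from the lowest colours in most YS and FL lines to high ones in BM lines, whereas Ndrg3 and Cpd are present throughout.

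The 3 genes share chromosome 8, a feature that the choice did not use. The chromosome as a whole did not stand higher in BM lines. Of 636 other tested genes on it, BM lines were higher than YS lines in 15 and lower in 43, and higher than FL lines in 15 and lower in 37. The former split became 23 and 35 under quantile normalization and 21 and 38 under median-of-ratios scaling. The share called higher in BM lines was 2.36% in both comparisons, below the 5.22% and 4.30% over all genes tested. The median difference over the chromosome was -0.13 against YS lines and -0.08 against FL lines, beside -0.11 and -0.09 over all genes, and the chromosome ranked 10 of 20 in each. Between YS and FL lines, 8 genes of the chromosome were higher in YS lines and 7 in FL lines. This count of 15 was 2.36% of the chromosome's genes, beside 3.79% over all genes tested. It became 7 without BM line 1, 3 without FL line 2 and 5 without FL line 3. Of the 21 genes with the steep BM pattern at 20 TPM or more, 4 lie on chromosome 8: the 3 genes and Vegfc. Vegfc encodes a lymphatic growth factor and was named after its values were seen. The 3 genes were chosen for such a pattern, and of the 18 others Vegfc alone lies there, beside 5.44% of all genes tested.

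Of the 18 nearest protein-coding genes along the chromosome, 3 on either side of each, 17 were in the table and 12 were tested. Between YS and BM lines limma called 0 of the 12, beside 12.8% of all genes, with 6 at an unadjusted p under 0.05, and between FL and BM lines 1 (8.33%), beside 10.3%. This was Gins3, a subunit of the replicative helicase complex that lies next before Ndrg4, at 44.99, 38.23 and 42.04 TPM in BM lines, 29.14, 24.88 and 15.02 TPM in YS lines and 16.31, 13.22 and 14.50 TPM in FL lines. Its BM lines were above all others, with a difference of 1.45 over FL lines (SE 0.22, limma adjusted p = 0.00324) and of 0.88 over YS lines, which was not called. On the other side of Ndrg4, Setd6 stood at 10.12 to 11.97 TPM in BM lines and 7.88 to 14.76 TPM in YS lines. The gene next before Cpe, Tll1, was listed at 0 in all lines, and the next after it, Msmo1, an enzyme of cholesterol synthesis, ran from 159.85 to 219.59 TPM in BM lines and from 36.68 to 195.78 TPM in YS lines with no call. The next after Fgfr1, Letm2, was at 0.94 to 2.54 TPM over the 9 lines.

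**Figure D3:**
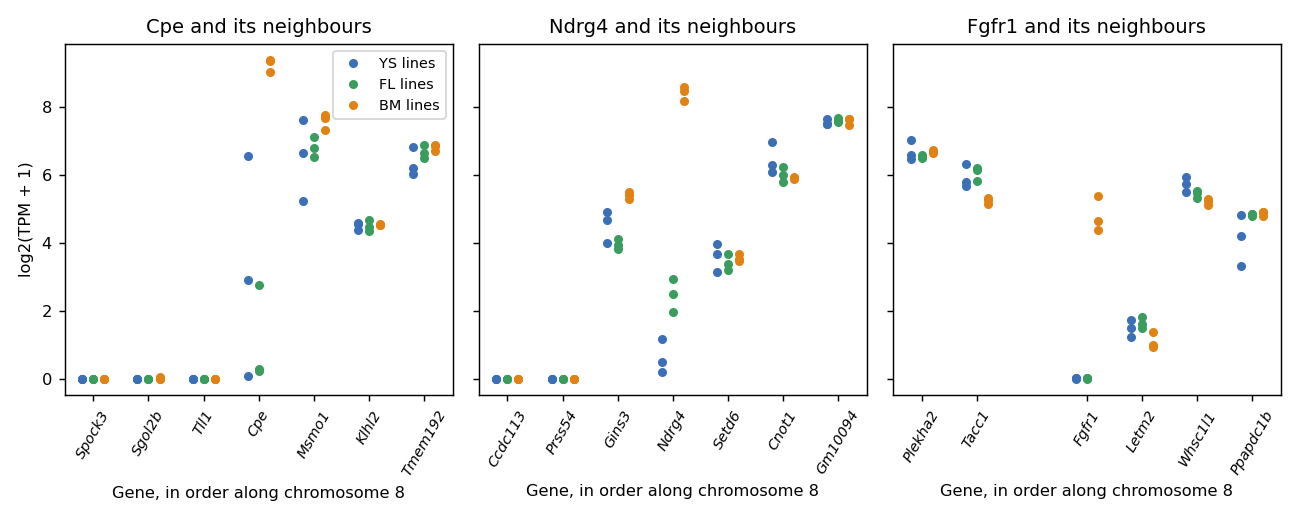
Level as log2(TPM + 1) of each gene and its nearest protein-coding neighbours in their order along chromosome 8, with 3 points per group for the 3 lines; a gap marks a neighbour that is not in the table. Cpe, Ndrg4 and Fgfr1 show BM lines apart from the rest, and among neighbours Gins3 is the closest to this pattern.

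Of the 3 genes, Ndrg4 matched the RefSeq promoter table (GRCm38.p6), with 4 annotated starts on the plus strand, and Cpe and Fgfr1 are named only. The windows of its outermost starts are shown, and those of the starts between them are described below. Each sequence covers the 230 bases that end 20 bases before the start, in lower case, with any searched motif in capitals.
Ndrg4 upstream start, chr8:95676724-95676953: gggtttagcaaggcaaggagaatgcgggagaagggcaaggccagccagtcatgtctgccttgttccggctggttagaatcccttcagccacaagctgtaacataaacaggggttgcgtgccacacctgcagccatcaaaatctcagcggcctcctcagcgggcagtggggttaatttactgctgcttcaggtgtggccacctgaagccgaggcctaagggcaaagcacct
Ndrg4 downstream start, chr8:95702806-95703035: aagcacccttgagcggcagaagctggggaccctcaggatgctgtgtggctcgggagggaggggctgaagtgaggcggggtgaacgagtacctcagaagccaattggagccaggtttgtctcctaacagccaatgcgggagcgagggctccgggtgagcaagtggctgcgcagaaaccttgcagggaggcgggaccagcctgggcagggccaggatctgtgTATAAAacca

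The downstream window held a TATA box (TATAAA) that begins 30 bases before the start, a motif found on either strand in 11.8% of 32851 windows of the same length. The upstream window held none of the 7 motifs searched. The windows of the 2 starts between them, chr8:95677513-95677742 and chr8:95678022-95678251, were richer in G and C, at 71.3% and 73.0% against 56.5% and 61.7% for the outermost ones, with 20 and 29 CpG pairs against 6 and 9. They held 1 and 2 GC boxes (GGGCGG, in 29.8% of all windows), and the former also an E-box (CACGTG, in 5.35%). The ETS motif GAGGAAGT, the AP-1 motif TGANTCA, the RUNX motif TGTGGT and the CRE motif TGACGTCA occurred in none of the 4 windows and in 2.17%, 6.34%, 13.2% and 1.28% of all windows. TPM values sum over the transcripts of a gene, so they do not say which start was used in BM lines.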

How the data were processed

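Poly(A)-selected, strand-specific libraries of 9 lines were sequenced, and the authors deposited one table of TPM values per gene and library, made per the submitters' processing notes with Trim Galore 0.6.6, STAR 2.7.9a and RSEM 1.3.3. Genome build and annotation are not given in the sources used here. TPM holds no read numbers, so the count-based test of the study could not be run. Values were taken as log2(TPM + 1), genes at 1 TPM or more in at least 3 libraries were kept (11753 of 24411), and all 9 libraries were fitted together with limma 3.58.1 in R 4.3.3 (empirical Bayes with trend, Benjamini-Hochberg adjustment). A call needed an adjusted p under 0.1 and a change over 2-fold, the thresholds of the study. Exact permutation tests used scipy 1.17.1. The code was tested on simulated data.

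Groups came from the sample labels. Cpe, Ndrg4, Fgfr1 and all lists were chosen with earlier results of these data known. Named were these genes, their families, up to 12 called list genes per list with non-overlapping groups and the largest differences, the 5 genes closest to each by Pearson's r, 3 neighbours on either side and markers at 5 TPM or more. Other named list genes (such as Gab1, Egr1, Grb2, Mapk3, Kl, Furin and Pcsk1) were chosen after their values were seen. Chromosomes and neighbours came from the RefSeq gene table, in which 11709 of the tested genes had a chromosome. Alternatives covered pseudocount, filter, scaling, trend, threshold, groups fitted, a replicate block and leaving out lines. Leaving out YS line 2 and BM line 2 together was added after the data were seen. Single results for a few genes that the naming rule would give are not reported here.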

Additional observations from a re-analysis of the deposited data

How the results depend on the processing

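Of 411 values computed for 21 results under 20 alternatives, 372 stayed as in the report. That is, they kept the same direction and call or, for counts of genes, a similar number. No difference changed sign except that of Fgfr1 in YS minus FL lines. It was 0 in the report, ran from -0.06 to 0.01 over the alternatives and was counted as the same. A larger pseudocount of 4 shrank the BM differences to 6.24 (Ndrg4 over YS lines), 5.33 (Ndrg4 over FL lines) and 2.96 (Fgfr1 over either group), and a pseudocount of 0.1 raised them to 9.25 for Ndrg4 over YS lines and 7.83 for Fgfr1 over either group, as follows from adding a constant to low values. Ndrg4 in YS minus FL lines was -0.91 at a pseudocount of 4, under 2-fold, and -1.85 with an adjusted p of 0.122 when only the 2 groups were fitted. Over all its alternatives its adjusted p ran from 0.0126 to 0.122. Leaving out a line gave -2.13 to -1.61 for Ndrg4 and 0.39 to 3.62 for Cpe in YS minus FL lines.

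Small counts moved most. FGF genes called between YS and FL lines numbered 1 with no filter and 1 without YS line 2 and BM line 2, and 0 to 1 when a line was left out. Peptide genes called between FL and BM lines numbered 2 when only the 2 groups were fitted, 2 at a pseudocount of 0.1 and 1 to 2 when a line was left out, and those between YS and FL lines 0 with a 5 TPM filter or only the 2 groups. NDRG genes called between FL and BM lines numbered 0 under quantile normalization, median-of-ratios scaling or a pseudocount of 4 and 0 to 1 when a line was left out. Those between YS and FL lines numbered 1 at a pseudocount of 0.1 and 1 without YS line 2 and BM line 2, and 0 to 1 when a line was left out. Chromosome 8 genes called between YS and FL lines numbered 4 at a false discovery rate under 0.05, 1 when only the 2 groups were fitted, 7 without YS line 2 and BM line 2, and 3 to 21 when a line was left out. The causes were not tested.

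The line numbers were not taken as pairs. Deviations of same-numbered lines correlated at -0.118 to 0.0880, and those of lines with different numbers at -0.138 to 0.118. The value of 0.0880 was that of YS line 2 and BM line 2, which held transcripts in common, so these correlations cannot exclude a link between lines. With the replicate block, peptide genes called between FL and BM lines numbered 2, the adjusted p of Ndrg4 in YS minus FL lines was 0.0568, the call of each of the 3 genes was the same, peptide genes called between YS and BM lines numbered 4, and chromosome 8 genes 60, 51 and 14 in the 3 comparisons. The median gene differed by -0.11 between BM and YS lines on the deposited scale, by 0.01 after quantile normalization and by 0.00 after median-of-ratios scaling. With no read numbers, values near 0.03 TPM cannot be given an error.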

Other observations

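The genes with the steep BM pattern (20 TPM or more in every BM line and at least 5 times the highest other line) span secreted, signalling and protease genes. These genes were chosen on their values and are described only. After Fgfr1, the largest ratio of the lowest BM line to the highest other line was found for Rgs16, a GTPase activator for G protein subunits, at 197 TPM against 0.80 TPM (ratio 246). Kirrel3, an adhesion protein of the immunoglobulin superfamily that was also among the genes closest to Fgfr1 by Pearson's r, followed with 50.66 against 0.33 TPM (154). The chemokine gene Cxcl14 came next with 28.36 against 0.25 TPM (113). Cathepsin K, the collagen-degrading protease encoded by Ctsk, stood at 90.21 TPM in its lowest BM line, BM line 2, which was 0.113 of the mean of BM lines 1 and 3. Ctsk was thus the gene of this set with the widest gap of BM line 2 to the other BM lines, beyond the 0.786, 0.788 and 0.619 of Cpe, Ndrg4 and Fgfr1.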
